A study of Mus musculus with 4 samples.

Results

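Ependymal-like ciliating glia of the mouse forebrain on embryonic day E18.5 are described here. They are droplet barcodes in which at least 3 of 6 genes had 1 or more unique molecular identifiers (UMIs, the counted RNA molecules). The 6 genes were Crym, Fxyd1, Riiad1, Tppp3, S100a6 and Nme5, called the rule genes. Barcodes also needed at least 1000 detected genes and at most 10% of UMIs from mitochondrially encoded genes. The rule took 374 of the 4252 barcodes kept in the 2 libraries of E18.5, out of 6296 kept in the series. These members were 313 of 3104 barcodes (10.1%, 95% Clopper-Pearson interval 9.05 to 11.2%) in the library labelled cortex. They were 61 of 1148 barcodes (5.31%, 4.09 to 6.77%) in the library labelled ganglionic eminence (GE), the ventral forebrain domain that makes GABAergic neurons.

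The embryos came from heterozygous Nestin-GFP mice crossed with homozygous DCX-mRFP mice and carried both reporters, so all groups share both transgenes. Green cells, called neural progenitors by the labels, were sorted after dissociation of cortex or GE, from embryos of E15.5 and of E18.5. Each region and age gave 1 droplet library of RNA 3′ ends (10x Genomics), and how many embryos were pooled is not given in the sources read. Only green cells entered the libraries, so shares are shares of sorted barcodes and not of the ventricular wall.

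Each group has 1 library, so the differences between groups have no replicates and no test was run. Intervals are exact 95% intervals and cover counting error only. The members were chosen by their counts, so every contrast between members and other barcodes is a description and supports nothing about the rule. The E18.5 libraries held 29427527 UMIs (labelled cortex) and 14528712 UMIs (labelled GE), and they shared 4 barcode sequences, none of which was a member on both sides. Region genes ran against the region labels. Among barcodes outside the rule, the dorsal progenitor factor Neurog2 was at 5.72 counts per 1000000 UMIs (CPM) in the library labelled cortex and at 231 CPM in that labelled GE. The dorsal factor Emx1 was at 1.26 and 37.2 CPM, the ventral factor Dlx1 at 695 and 159 CPM, and the ventral factor Nkx2-1 at 123 and 1.95 CPM, in the same order. The names of the deposited files also give the other region for both libraries. The regions are therefore written as "labelled cortex" and "labelled GE" throughout.

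Ependymal cells line the brain ventricles and carry tufts of motile cilia that move cerebrospinal fluid. They descend from radial glia, share much of their gene program with astrocytes, and leave the cell cycle before they multiply their basal bodies. Gmnc and Mcidas start that program, Foxj1 and the RFX factors switch on the genes of the motile axoneme, and dynein arms, radial spokes and the central pair make it beat.

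Upstream sequences are shown for rule genes and for ciliary genes higher in members of both libraries, because RFX factors bind a motif, the X-box, that is common near the starts of ciliary genes. Of the 6 rule genes, Fxyd1 and S100a6 were matched in the RefSeq promoter table (build GRCm38.p6). Printed with them are Pifo and Enkur, genes of ciliary proteins. All 4 windows were chosen because they hold the motif GTTGCC. Capitals mark GTTGCC, which makes up a part of the X-box, or GGCAAC, the same letters on the other strand. The windows hold the 250 bases before a RefSeq transcript start, except for S100a6, where the window of 238 bases stops before the first exon of another transcript. The windows of Fxyd1 and Pifo lie inside the annotated span of the gene, before an inner transcript start, and the other Pifo window of the table, before the outermost start, does not hold the motif. They lie at chr7:31054854-31055103 (minus strand), chr3:90612644-90612881 (plus strand), chr3:106001498-106001747 (minus strand) and chr2:21205366-21205615 (minus strand), in the order printed, and are written 5′ to 3′ along the gene's own strand.
Fxyd1: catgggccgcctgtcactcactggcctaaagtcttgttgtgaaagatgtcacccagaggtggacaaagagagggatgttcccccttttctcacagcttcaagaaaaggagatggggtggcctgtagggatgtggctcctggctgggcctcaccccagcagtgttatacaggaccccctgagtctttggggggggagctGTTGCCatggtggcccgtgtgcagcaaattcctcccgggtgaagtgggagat
S100a6: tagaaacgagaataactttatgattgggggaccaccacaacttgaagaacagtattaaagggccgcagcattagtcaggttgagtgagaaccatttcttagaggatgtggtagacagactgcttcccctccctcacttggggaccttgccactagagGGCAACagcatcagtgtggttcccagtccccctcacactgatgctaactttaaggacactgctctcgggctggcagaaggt
Pifo: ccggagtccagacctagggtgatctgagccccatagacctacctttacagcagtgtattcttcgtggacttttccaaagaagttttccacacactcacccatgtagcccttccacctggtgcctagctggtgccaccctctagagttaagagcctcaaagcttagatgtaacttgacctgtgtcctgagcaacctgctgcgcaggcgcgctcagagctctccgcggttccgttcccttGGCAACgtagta
Enkur: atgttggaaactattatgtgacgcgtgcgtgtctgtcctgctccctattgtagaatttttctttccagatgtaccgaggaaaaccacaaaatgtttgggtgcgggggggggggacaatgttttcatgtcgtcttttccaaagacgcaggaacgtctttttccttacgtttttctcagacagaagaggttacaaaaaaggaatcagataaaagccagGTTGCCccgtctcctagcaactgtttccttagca
The match began 52 bases before the start in Fxyd1 and 34 bases before it in Enkur, on the gene's strand. It began 93 bases before the start in S100a6 and 12 bases before it in Pifo, on the other strand. GTTGCC on either strand was found in 10.4% of all 32851 promoter windows of 250 bases in the table. It was found in 31.8% of 129 windows of the axonemal dynein and axoneme lists (113 of 141 genes matched), in 35.0% of 20 windows of those higher in members of both libraries (17 of 19 genes), and in 10.3% of 340 windows of all genes higher in members of both libraries. TAAACA, the core of the forkhead motif that FOXJ1 and other forkhead factors share, was found in 12.03%, 17.8%, 5.0% and 11.5% of the same windows. Windows of Capsl, Ccdc39 and Rsph9, also higher in members, do not hold GTTGCC. Both strands were searched, and the motifs cannot share bases on either strand. A match describes the letters in the window only.

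The 6 rule genes were unevenly shared between the libraries. Crym, a cytosolic protein that binds thyroid hormone, had a UMI in 197 of 313 members labelled cortex (62.9%) and in 4 of 61 labelled GE (6.6%). Its summed level was 730.7 CPM and 14.4 CPM, and 15 of its 20 UMIs in members labelled GE lay in 1 barcode. Crym thus chose members in the library labelled cortex and hardly any in the other. Riiad1, which carries a domain like that of a protein kinase A regulatory subunit, was found in 84.0% and 90.2% of members, labelled cortex first. S100a6, a calcium-binding protein, was found in 80.2% and 96.7%. Tppp3, a tubulin-binding protein that promotes microtubule assembly, was found in 69.3% and 83.6%. Fxyd1, a small regulator of the sodium pump, was found in 74.4% and 62.3%, and Nme5, a protein of the radial spokes, in 47.6% and 55.7%. Outside the rule as a whole, no rule gene was found in more than 12.4% of barcodes of either library. Those barcodes hold fewer than 3 of the 6 genes by definition, so low shares follow in part from the rule. Astrocyte precursors here are barcodes outside the rule with at least 5 of 8 astrocyte markers. In them, S100a6 was found in 33.0% and 24.1%, Riiad1 in 16.7% and 17.0%, and the other 4 rule genes in 0.340% to 10.5%. The neuron-list class, chosen after the data were seen, held barcodes with at least 6 of 24 neuron genes. Members, astrocyte precursors and barcodes with at least 6 of 8 radial glia markers were left out of it. In that class, Riiad1 was found in 7.7% and 6.4%, and the other 5 rule genes in 0.338% to 3.16%. Free RNA was not estimated, and its part in these shares was not tested.

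With all UMIs, most members stood well inside the threshold in the library labelled cortex. There, 104 members had exactly 3 rule genes, 83 had 4, 90 had 5 and 36 had all 6, and 124 barcodes just outside had 2. In the library labelled GE, 22 members had 3 rule genes, 21 had 4, 17 had 5 and 1 had 6, and 67 barcodes had 2. Among members with exactly 3, the commonest combination was Crym, Riiad1 and S100a6 (14 of 104) labelled cortex and Riiad1, Tppp3 and S100a6 (10 of 22) labelled GE. With 4000 UMIs drawn from each barcode, 94, 57, 25 and 4 barcodes labelled cortex had 3, 4, 5 and 6 rule genes. At that depth 94 of 180 members thus lay at the threshold, and 100 barcodes had 2 rule genes. Labelled GE, 15, 3, 3 and 0 barcodes had 3, 4, 5 and 6, and 17 had 2.

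**Figure D1:**
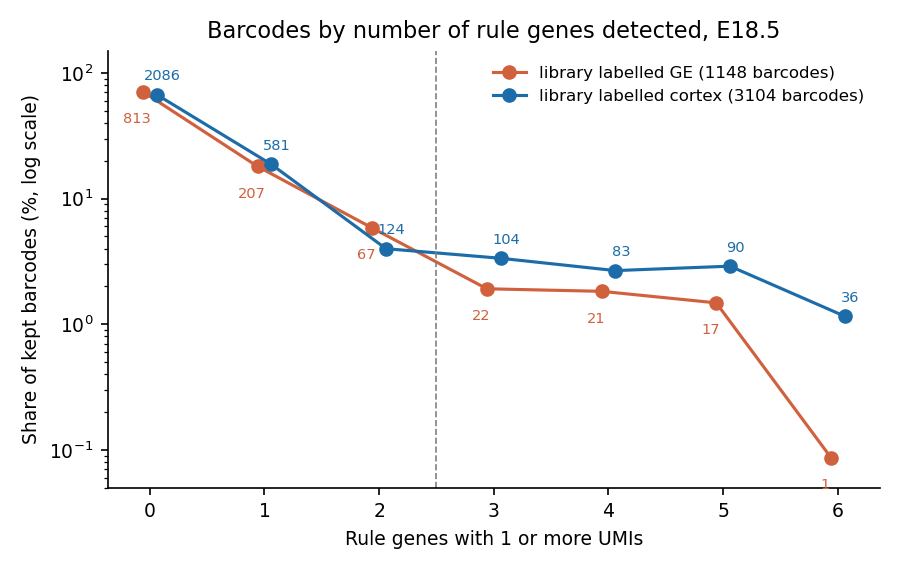
Share of kept barcodes (%, log axis) by the number of rule genes with 1 or more UMIs, for the library labelled cortex (blue, 3104 barcodes) and the library labelled GE (orange, 1148 barcodes), with the number of barcodes beside each point and the threshold as a dashed line. All UMIs are used, without thinning to equal depth. The blue line stays level from 2 to 5 rule genes (124, 104, 83 and 90 barcodes), while the orange line falls from 67 to 22 barcodes across the threshold.

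Depth moved with membership. Members had a median of 9943 UMIs against 8645 for the other barcodes labelled cortex, and of 18108 against 9932 labelled GE. With barcodes ranked by depth and divided into 4 groups of like size, members were 3.74%, 11.3%, 11.5% and 13.8% of barcodes labelled cortex, and 0.348%, 2.44%, 4.53% and 13.9% of those labelled GE, from the shallowest to the deepest. When every barcode was thinned to 4000 UMIs, 180 of 2818 barcodes labelled cortex (6.39%, 5.51 to 7.35%) and 21 of 1148 labelled GE (1.83%, 1.14 to 2.78%) still met the rule, and 286 barcodes labelled cortex were too shallow to be thinned. Barcodes with UMIs of both Xist and Y-linked genes were 12.5% of members and 5.48% of other barcodes labelled cortex, and 29.5% and 10.8% labelled GE. After thinning, those shares were 4.61% and 2.90% labelled cortex and 1.64% and 3.04% labelled GE. Doublet-like barcodes were 21 of 313 members and 58 of 2791 other barcodes labelled cortex. Labelled GE they were 2 of 61 members and 9 of 1087 other barcodes. They thus made up a larger share of members in both libraries, but labelled GE this rests on 2 barcodes. The part of depth and of mixed barcodes in the results was not tested, and values without these barcodes are given where they differ.

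Labelled cortex, genes of motile cilia outside the rule were higher in barcodes with 2 or more rule genes than in those with 0 or 1, and their levels beyond that differed between all UMIs and equal depth. Foxj1, the transcription factor of the motile cilium (chromosome 11, 116330704 to 116335399, minus strand, GRCm38), was at 3.07 CPM in barcodes labelled cortex with 0 rule genes and at 7.07 CPM with 1. It was at 49.7 CPM (36.8 to 65.8) just outside the threshold, with 2, and at 51.6 CPM (37.8 to 68.9) just inside it, with 3. It was at 81.7, 98.8 and 157 CPM with 4, 5 and 6. When barcodes were thinned to 4000 UMIs before the rule genes were counted, Foxj1 labelled cortex was at 126 CPM (91.04 to 171) with 2 rule genes, 87.6 (58.2 to 127) with 3, 77.3 (43.3 to 128) with 4 and 106 (48.5 to 201) with 5, and 4 barcodes with 6 were at 509 CPM (205 to 1049). At equal depth the intervals from 2 to 5 rule genes thus overlapped. Labelled GE, Foxj1 was at 1.46, 3.51 and 11.4 CPM with 0, 1 and 2 rule genes, at 20.4 CPM with 3, at 139 CPM with 4 and at 54.7 CPM with 5. Thinned, it was at 69.6 CPM (18.95 to 178) with 2 and 191 CPM (91.4 to 351) with 3, over 17 and 15 barcodes. It was at 0 CPM with 4 and 188 CPM with 5, over 3 barcodes each.

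The summed level of 104 axoneme genes (radial spokes, central pair and others) went from 621 CPM with 0 rule genes to 1139 with 2, 2048 with 3 and 3714 with 6 labelled cortex. Thinned, it was 625 CPM with 0, 2674 (2501 to 2855) with 2, 3030 (2842 to 3227) with 3, 2928 with 4 and 3627 with 5, so the step from 2 to 3 rule genes was smaller than with all UMIs. Labelled GE it went from 565 CPM to 846 with 2, 905 with 3, 1776 with 4 and 2166 with 5, and thinned it was 558 CPM with 0, 2035 (1683 to 2438) with 2 and 3279 (2807 to 3807) with 3. The 37 axonemal dyneins and assembly factors went from 395 CPM with 0 rule genes to 886 with 6 labelled cortex, and from 341 CPM to 571 with 5 labelled GE. Thinned, they were at 704 CPM with 2, 845 with 3 and 675 with 4 labelled cortex, with overlapping intervals.

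**Figure D2:**
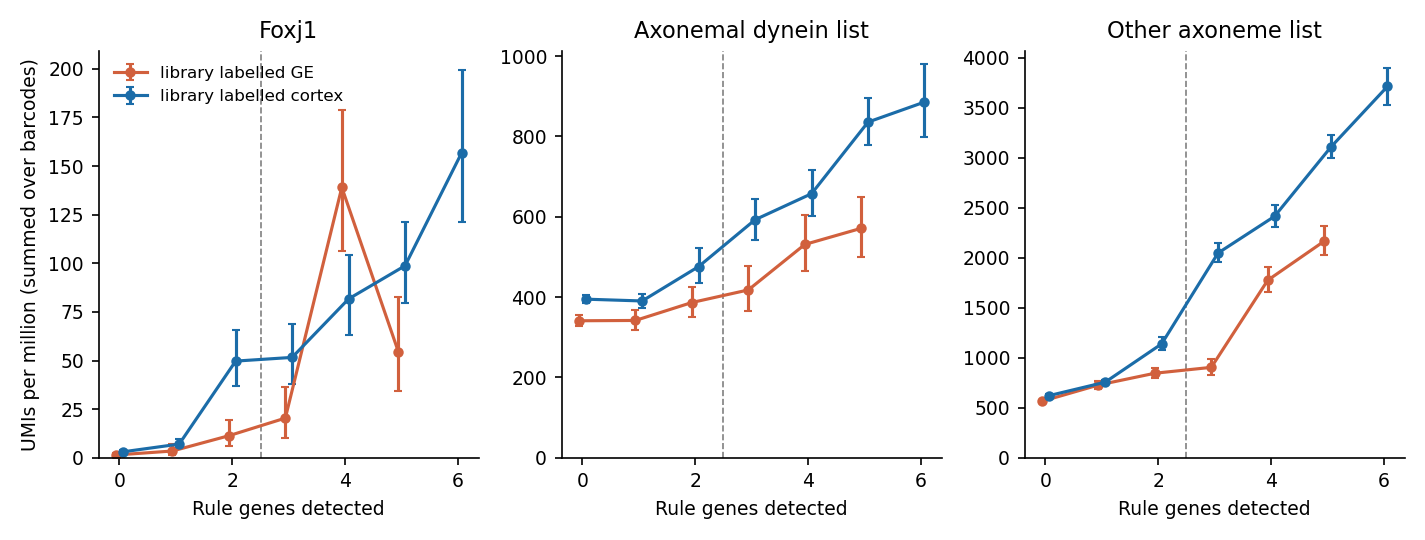
Summed UMIs per 1000000 of Foxj1, the axonemal dynein list and the axoneme list (linear axes from 0) against the number of rule genes detected, with 95% Poisson intervals as bars, for groups of at least 10 barcodes in each library. Barcodes are not thinned. Levels are higher with 3 to 5 rule genes than with 0 or 1 in all 3 panels, and Foxj1 labelled GE is highest at 4 rule genes (139 CPM).

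Members differed among themselves in ciliary content. Over the 141 genes of the dynein and axoneme lists, the median member had 2780 CPM labelled cortex (quartiles 1898 and 4678) and 1865 CPM labelled GE (1321 and 2968). Other barcodes had medians of 963 and 884 CPM, and astrocyte precursors of 1066 and 1058 CPM. After thinning to 4000 UMIs, 143 of 304 members (47.0%) labelled cortex and 21 of 61 (34.4%) labelled GE had at least 10 ciliary UMIs, against 1.27% and 1.01% of other barcodes. The remaining members fell under 10 ciliary UMIs at that depth, so members spanned a wide range of ciliary content. Outside the rule, 32 barcodes labelled cortex and 11 labelled GE had 10 or more. Of those 32 barcodes, 10 had 2 rule genes, 11 had a Foxj1 UMI and the highest had 70 ciliary UMIs, so that some barcodes rich in ciliary RNA were missed by the rule. Foxj1 itself was found in 118 of 313 members labelled cortex and 32 of 61 labelled GE. Members with a Foxj1 UMI had a median ciliary content of 3607 CPM against 2456 CPM for those without it labelled cortex, and of 2285 against 1548 CPM labelled GE. Across members the rank correlation of ciliary CPM with the number of rule genes was 0.22 and 0.48, and with total UMIs -0.17 and -0.52, over 313 and 61 barcodes that share a library. The negative values say that deeper members held a smaller ciliary share, most so labelled GE.

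Members were set against all other barcodes of their library by the ratio of summed UMIs. A gene was measured if it had at least 20 CPM on either side. It was called when its 2 levels were at least 2-fold apart and the interval of the ratio excluded 1. Labelled cortex, 1203 of 7959 measured genes were called higher (15.1%) and 695 lower (8.73%). Labelled GE, 411 of 8058 were called higher (5.1%) and 189 lower (2.35%). In both libraries, 355 of 7542 were higher (4.71%) and 114 lower (1.51%). Without the barcodes that held both Xist and Y-linked UMIs, an alternative added after the data were seen, 637 genes were higher and 375 lower in both libraries. The median log2 ratio of all measured genes was -0.04 in each library. A gene can pass the 20 CPM minimum through the members alone, so counts over a list are read beside these shares and not as evidence.

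Structural genes of the axoneme were more abundant in members of both libraries. Summed over all 104 genes of the list, they were at 2699.7 CPM in members and 676 CPM in other barcodes labelled cortex, and at 1551 and 632 CPM labelled GE. Of these genes, 36 were measured labelled cortex, with 32 higher, 1 lower and a median log2 ratio of 3.91. Labelled GE, 23 were measured, with 16 higher, 0 lower and a median of 1.70, and the same 16 were higher labelled cortex. Without the CPM minimum the medians were 3.72 over 100 genes and 2.62 over 93. Labelled GE, the median was 3.35 without the barcodes with both Xist and Y-linked UMIs, 4.98 with thinned barcodes and 0.84 with a minimum of 50 CPM. Pifo, a ciliary protein, had 210 UMIs in members and 46 in other barcodes labelled cortex, or 69.6 and 2.23 CPM, a difference of 31.2-fold (22.6 to 43.9). It had 45 and 7 UMIs labelled GE, a difference of 47.6-fold (21.3 to 125). Rsph1, a subunit of the radial spoke head, was higher by 30.5-fold (22.04 to 42.9) and 31.1-fold (15.3 to 69.4), labelled cortex first here and in what follows. Capsl, an EF-hand protein, was higher by 34.9-fold (23.01 to 54.9) and 34.2-fold (15.7 to 85.1). The intervals of these 3 genes overlapped between the libraries. Enkur, whose promoter is shown, had 240 and 94 UMIs labelled cortex (17.5-fold, 13.7 to 22.4) and 44 and 40 labelled GE (8.14-fold, 5.18 to 12.8). Pifo was found in 36.7% and 34.4% of members, against 0.288% and 0.338% of the neuron-list barcodes, whose median depths were 8276.5 and 6728.5 UMIs.

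Genes of dynein arms differed less as a sum. All 37 genes of the dynein list were at 725 CPM in members and 398 CPM in other barcodes labelled cortex, and at 499 and 346 CPM labelled GE. Of them, 11 were measured labelled cortex, with 8 higher, 1 lower and a median log2 ratio of 3.22, and 6 labelled GE, with 3 higher, 0 lower and a median of 0.98. The 3 higher labelled GE were also higher labelled cortex. Without the CPM minimum the medians were 3.21 over 34 genes and 1.92 over 33, and with a minimum of 50 CPM they were -0.023 over 5 genes and -0.0071 over 2. Labelled GE, the median was 2.65 without the barcodes with both Xist and Y-linked UMIs and 3.83 with thinned barcodes. Ccdc39, which helps to set the spacing of dynein arms along the axoneme, had 159 and 81 UMIs labelled cortex (13.4-fold, 10.2 to 17.8) and 46 and 90 labelled GE (3.78-fold, 2.59 to 5.45). Dynlrb2, a dynein light chain, was higher by 21.1-fold (15.8 to 28.4) labelled cortex. It had 25 and 13 UMIs labelled GE, under the 20 CPM minimum. Dnaic1, an intermediate chain of the outer arm, had 102 UMIs in members labelled cortex and 4 in members labelled GE.

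Genes that all cilia use stood much closer to the other barcodes. Of 41 genes of intraflagellar transport and the BBSome, the machinery that carries cargo along the cilium, 9 of 32 measured were higher labelled cortex and 2 of 30 labelled GE, with medians of 0.68 and 0.43 and none lower. The transport gene Ttc30b was higher by 6.84-fold (5.47 to 8.55) and 2.13-fold (1.51 to 2.97), and Wdr60 by 2.71-fold (2.20 to 3.33) and 2.08-fold (1.54 to 2.79). Of 44 basal body and transition zone genes, 7 of 35 measured were higher and 1 lower labelled cortex, and 0 of 34 were called labelled GE, with medians of 0.27 and 0.12. The counts labelled GE, 2 of 30 and 0 of 34, stood near or under the 5.1% of all measured genes.

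Few of the regulators that start multiciliation reached the measurable range. Foxj1 had 267 UMIs in members and 128 in other barcodes labelled cortex, or 88.5 and 6.21 CPM, a difference of 14.3-fold (11.5 to 17.7). It had 94 and 31 UMIs labelled GE, or 67.7 and 3.02 CPM, a difference of 22.4-fold (14.8 to 34.8). A Foxj1 UMI was found in 37.7% and 52.5% of members and in 1.27% and 0.676% of the neuron-list barcodes. Mcidas, a co-activator that acts before Foxj1, had 19 UMIs in members and 4 outside labelled cortex (32.5-fold, 10.8 to 131), and 5 and 1 labelled GE (36.99-fold, 4.14 to 1749). Gmnc, which acts upstream of it, had 6 and 1 UMIs labelled cortex (41.02-fold, 4.98 to 1887) and 2 and 1 labelled GE (14.8-fold, 0.77 to 873). Ccno, needed for the mass production of basal bodies, had 44 and 12 UMIs (25.1-fold, 13.02 to 52.1) and 15 and 6 UMIs (18.49-fold, 6.78 to 58.2). Trp73, an activator of the program, had 13 and 10 UMIs labelled cortex and 2 and 5 labelled GE. These 4 genes were under the 20 CPM minimum in both libraries, and Ccno was found in 2.24% and 3.28% of members.

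The RFX factors and the cell-cycle regulators of the list were less far apart. Rfx2 had 55 UMIs in members and 49 outside labelled cortex (7.67-fold, 5.13 to 11.5) and 21 and 25 labelled GE (6.21-fold, 3.31 to 11.6), also under the minimum. Rfx3 was higher by 2.16-fold (1.85 to 2.51) labelled cortex and by 1.45-fold (1.12 to 1.84) labelled GE. Myb, which acts early in multiciliation and also in dividing cells, had 58 and 356 UMIs labelled cortex (1.11-fold, 0.829 to 1.47). Gmnn, geminin, which holds back multiciliation and DNA re-replication, was lower by 3.07-fold (2.64 to 3.59) labelled cortex and by 1.24-fold (1.01 to 1.54) labelled GE. Of the 23 regulators, 3 of 9 measured were called higher and 2 lower labelled cortex, and 1 of 8, Foxj1, was called higher labelled GE.

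The 10 genes that ranked highest in both libraries held ciliary genes and several others. Besides Capsl, Pifo and Rsph1, they were Sfrp5, Acta2, Slc39a12, Lgals3, 1110017D15Rik, 2900052N01Rik and 2410004P03Rik. Sfrp5, a secreted inhibitor of Wnt signalling, had 333 UMIs in members and 63 outside labelled cortex (36.1-fold, 27.5 to 48.1), and 39 and 3 labelled GE (96.2-fold, 30.6 to 486). It was found in 39.9% of members labelled cortex and 18.03% labelled GE. Lgals3, the lectin galectin-3, was higher by 20.6-fold (15.04 to 28.7) and 22.2-fold (15.01 to 33.5). Slc39a12, a zinc transporter, was higher by 27.7-fold (17.2 to 46.3) and 23.02-fold (10.6 to 55.4). Of 37 genes linked with ependymal cells, 12 of 22 measured were higher and 3 lower labelled cortex, and 7 of 22 were higher labelled GE, with medians of 1.17 and 0.59. Rarres2, the secreted protein chemerin, had log2 ratios of 4.10 and 2.81, and Tspan33, a tetraspanin, of 2.70 and 1.41. S100b, a calcium-binding protein of mature ependyma and astrocytes, had 5 UMIs in members labelled cortex and 8 labelled GE, with log2 ratios of -0.11 and -0.02. Cd24a, a surface protein of ependymal cells and young neurons, was lower labelled cortex (log2 ratio -1.43) and at -0.80 labelled GE. Foxj1 and the axoneme genes were higher in members. The rule itself holds a radial spoke gene, Nme5, so this lends no support to the ependymal name. S100b, at 1.66 and 5.76 CPM in members, was under the 20 CPM minimum and too low to be read either way. Cd24a was found in 65.5% and 77.0% of members. Neuron-list barcodes were 1738 of the 2791 other barcodes labelled cortex and 296 of the 1087 labelled GE. Their part in the Cd24a ratios was not tested.

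**Figure D3:**
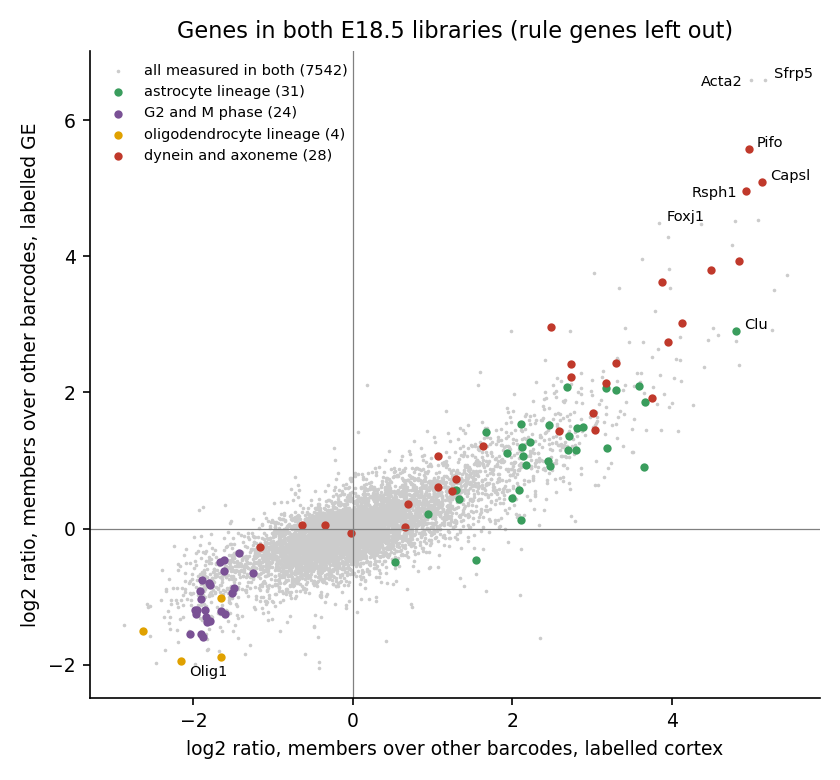
Log2 ratio of members over other barcodes for each of 7542 genes measured in both E18.5 libraries (labelled cortex on the x axis, labelled GE on the y axis), with 4 gene lists in colour. Dynein and axoneme genes reach the upper right corner, astrocyte genes lie between it and the centre, and G2 and M phase and oligodendrocyte genes lie at the lower left.

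Astrocyte and radial glia genes were also higher in members. Of 34 astrocyte lineage genes, 29 of 31 measured were higher labelled cortex and 20 of 32 labelled GE, with none lower and medians of 2.44 and 1.17. Clu, a secreted chaperone of astrocytes and ependyma, was at 1035 CPM in members and 37.00 CPM outside labelled cortex (27.99-fold, 25.8 to 30.3), and at 634 and 84.4 CPM labelled GE (7.51-fold, 6.83 to 8.26). The metallothionein Mt3 was higher by 12.7-fold (12.3 to 13.1) and 3.64-fold (3.51 to 3.78). Aqp4, the water channel of astrocytes and ependyma, was found in 46.6% and 45.9% of members and was higher by 5.51-fold (4.71 to 6.44) and 2.88-fold (2.25 to 3.65). Gfap, the astrocyte filament protein, had 32 and 43 UMIs in members, and its log2 ratio labelled GE, 1.34, was -0.034 when barcodes were thinned before the rule. Of 25 radial glia and Notch genes, 16 of 24 were higher and 2 lower labelled cortex, and 5 of 25 were higher and 2 lower labelled GE, with medians of 1.54 and 0.69. At least 5 of 8 astrocyte markers were found in 72.2% of members and 9.89% of other barcodes labelled cortex, and in 85.2% and 27.0% labelled GE. At least 6 of 8 radial glia markers were found in 97.8% and 28.2% labelled cortex, and in 100% and 59.8% labelled GE. These shares were not taken at equal depth. Vcam1, an adhesion protein of ependymal cells and neural stem cells, was higher by 8.26-fold (7.61 to 8.98) and 3.28-fold (2.94 to 3.65).

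Division and oligodendrocyte genes were called lower in both libraries, and S phase, neuron and neurogenic genes mostly labelled cortex. Neuron-list barcodes were a larger part of the other barcodes labelled cortex than of those labelled GE. What this did to these values was not tested. Of 24 G2 and M phase genes, 24 were lower labelled cortex and 13 labelled GE, with medians of -1.82 and -1.11 and none higher. Without the barcodes with both Xist and Y-linked UMIs the medians were -1.98 and -2.06, without the deepest 5% of barcodes -2.62 and -2.17, and with thinned barcodes -3.14 and -1.63. Mki67, a marker of cycling cells, was found in 16.6% of members and 46.5% of other barcodes labelled cortex, and in 44.3% and 37.3% labelled GE. Its summed level was 81.2 against 302 CPM labelled cortex and 111 against 187 CPM labelled GE. All 20 S phase genes were called lower labelled cortex, and 2 of 19 labelled GE. Of 15 oligodendrocyte lineage genes, 4 of 4 measured were lower labelled cortex and 7 of 10 labelled GE, with medians of -1.91 and -1.47. Labelled GE, the median was -2.55 without the barcodes with both Xist and Y-linked UMIs and -2.84 without the deepest 5% of barcodes. Labelled cortex it was -2.95 with thinned barcodes. Olig1, a factor of oligodendrocyte precursors, was lower by 4.46-fold (3.93 to 5.08) and 3.85-fold (3.52 to 4.23), and Olig2 by 3.16-fold (2.75 to 3.64) and 3.71-fold (3.22 to 4.30). The 10 genes that ranked lowest in both libraries also held Spry1, a feedback inhibitor of FGF signalling (3.93-fold, 2.39 to 6.94 and 3.97-fold, 2.49 to 6.76 lower), the Notch ligand Dll3, the zinc finger factor Myt1 and the division genes Fbxo5, Asf1b, Esco2, Cdca2 and Cdca5. Of 24 neuron genes, 15 of 18 measured were lower labelled cortex and 4 of 21 labelled GE. Of 17 neurogenic progenitor genes, 9 of 10 were lower labelled cortex and 1 of 13 labelled GE.

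Markers of vessel-wall cells moved with the members in part. At least 3 of 12 mural cell markers were found in 29.4% of members and 0.752% of other barcodes labelled cortex, and in 55.7% and 4.32% labelled GE. The list's summed level was 346 and 80.4 CPM labelled cortex and 305 and 253 CPM labelled GE, with 3 and 2 of its 12 genes at 0 UMIs in members. Labelled cortex, 4 of 4 measured genes were called higher, with a median log2 ratio of 3.42, and labelled GE 4 of 8 were higher and 3 lower, with a median of 0.26. Myl9, a myosin light chain, was higher by 14.5-fold (11.7 to 18.05) and 2.72-fold (2.10 to 3.49), and Pdgfrb, a growth factor receptor, by 7.91-fold (6.78 to 9.24) and 3.24-fold (2.56 to 4.07). Acta2, smooth muscle actin, had 98 and 21 UMIs labelled cortex (31.9-fold, 19.8 to 53.8) and 52 and 4 labelled GE (96.2-fold, 35.4 to 366). Notch3, which neural progenitors also express, was higher by 5.70-fold (4.79 to 6.78) and 4.32-fold (3.34 to 5.55). The genes called lower labelled GE were the pericyte genes Rgs5 and Higd1b and the gene of vitronectin, Vtn (log2 ratio -1.41). Rgs5 had 12 UMIs in members labelled cortex and 15 labelled GE, 2.39-fold (1.34 to 4.70) and 6.06-fold (3.65 to 10.9) lower than outside (under the 20 CPM minimum labelled cortex), and Higd1b had 1 and 0 UMIs. Ogn, an extracellular matrix protein of the fibroblast list, was higher by 38.9-fold (26.1 to 59.9) and 11.4-fold (7.62 to 17.1), while at least 3 fibroblast markers were found in 0 and 1 members. Ttr, the main product of choroid plexus, had 13 and 1 UMIs in members, and at least 3 choroid plexus markers were found in 12 and 4. At least 3 endothelial, microglial or erythroid markers were found in 0 members of either library. A count of 0, read as at most 3 counts, allows a share of up to 0.958% of the 313 and 4.92% of the 61 members. The part of mural RNA in the members' profile was not tested.

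Members were then set against astrocyte precursors, barcodes outside the rule with at least 5 of 8 astrocyte markers (276 labelled cortex and 294 labelled GE, with median depths of 8323 and 12128 UMIs). Labelled cortex, 375 of 7839 measured genes were higher in members (4.78%) and 224 lower (2.86%). Labelled GE, 201 of 7967 were higher (2.52%) and 132 lower (1.66%), and in both libraries 115 of 7446 were higher (1.54%) and 63 lower (0.846%). Without the barcodes with both Xist and Y-linked UMIs, 241 were higher and 168 lower in both libraries. Axoneme genes again stood apart, with 27 of 35 measured higher labelled cortex and 13 of 23 labelled GE, and none lower. Pifo was higher by 19.05-fold (9.49 to 44.7) and 20.4-fold (8.68 to 58.5), Rsph1 by 18.6-fold (9.26 to 43.6) and 19.1-fold (8.06 to 54.8), and Foxj1 by 8.42-fold (5.50 to 13.5) and 11.6-fold (7.25 to 19.4). Cryab, a small heat shock protein, was higher by 17.9-fold (7.45 to 55.95) and 9.43-fold (5.23 to 18.04), and Lgals3 by 8.93-fold (5.08 to 17.1) and 10.2-fold (6.67 to 16.1). Ubxn11 had log2 ratios of 3.22 and 3.25. Acta2 had 98 and 8 UMIs labelled cortex (8.89-fold, 4.34 to 21.2), and 52 and 2 labelled GE (70.8-fold, 18.6 to 599.7). Mcidas had 0 and 0 UMIs in the precursors and Ccno 0 and 0.

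Radial glia genes were close to their level in astrocyte precursors, with median log2 ratios of -0.05 labelled cortex and 0.09 labelled GE. None of 24 measured radial glia genes was called labelled cortex, and 1 of 25 was higher labelled GE. Of 26 astrocyte genes that were not used to choose the precursors, 4 of 23 measured were higher and 4 lower labelled cortex. Labelled GE, 4 of 24 were higher and 0 lower. The median log2 ratios were 0.12 and 0.26. Of all measured genes, 4.78% were higher and 2.86% lower labelled cortex, and 2.52% were higher and 1.66% lower labelled GE. Astrocyte genes were called higher more often than that in both libraries and lower more often labelled cortex, on 4 genes each time. None was called lower labelled GE. Aqp4, which is among the astrocyte markers that chose the precursors and so is not in these counts, was lower by 1.56-fold (1.33 to 1.83) labelled cortex. It was higher by 1.08-fold (0.843 to 1.37) labelled GE, where the interval holds 1. Because precursors were chosen in part by Aqp4, its ratios are not read as a difference between the classes. Clu was higher in members by 5.22-fold (4.72 to 5.79) and 3.67-fold (3.31 to 4.06). Vcam1 was higher by 1.74-fold (1.57 to 1.93) and 1.80-fold (1.60 to 2.02), under the 2-fold minimum.

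Several signalling genes were lower in members than in astrocyte precursors. Of 26 genes of BMP, Wnt and related signals, 9 of 17 measured were lower labelled cortex and 6 of 17 labelled GE, and none was higher. Id3, a target of BMP signals, was at 192 CPM in members and 1443 in precursors labelled cortex (7.53-fold, 6.89 to 8.24), and at 356 and 1091 CPM labelled GE (3.07-fold, 2.80 to 3.38). Spry1 was lower by 14.4-fold (8.60 to 25.7) and 3.43-fold (2.10 to 5.93), and the growth factor receptor Egfr by 4.81-fold (3.75 to 6.24) and 2.02-fold (1.56 to 2.64). Among the 10 genes that ranked lowest in both libraries were also Grm3, a metabotropic glutamate receptor (7.01-fold, 4.50 to 11.4 and 4.52-fold, 2.75 to 7.90), and Serpine2, a secreted protease inhibitor (7.19-fold, 6.20 to 8.36 and 3.29-fold, 2.75 to 3.95). Grm5, Pla2g3, Chst7, Prr18, Tmem176a and Cdca5 completed them. Of 24 G2 and M phase genes, 9 were lower labelled cortex and 17 labelled GE, and Ube2c, a ubiquitin-conjugating enzyme of mitotic exit, was lower by 2.22-fold (1.96 to 2.51) and 3.21-fold (2.65 to 3.91). Olig1 and Olig2 were lower labelled cortex by 7.23-fold (6.31 to 8.32) and 3.75-fold (3.20 to 4.41), and labelled GE by 1.90-fold (1.72 to 2.10) and 1.99-fold (1.71 to 2.33), the last 2 under the 2-fold minimum.

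**Figure D4:**
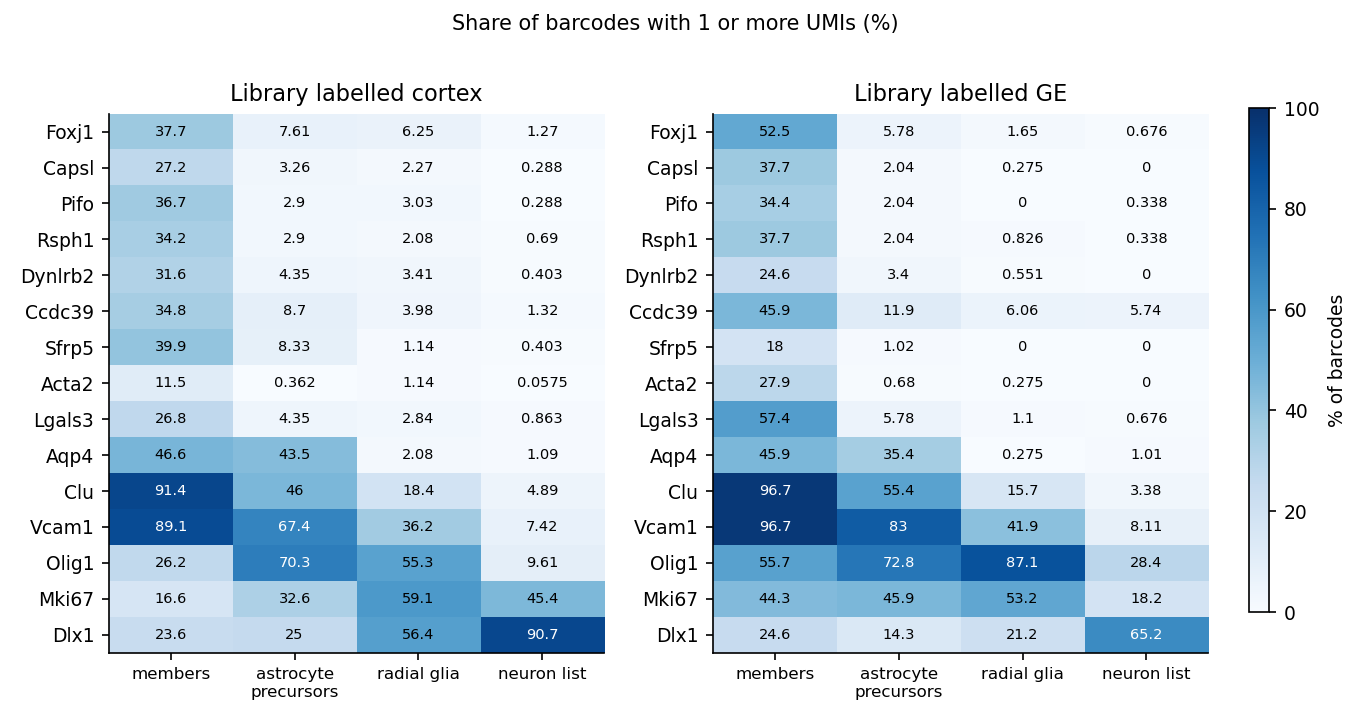
Share of barcodes (%) with 1 or more UMIs of 15 genes, by class, for each E18.5 library. The classes are members, astrocyte precursors, radial glia and neuron-list barcodes. Radial glia have at least 6 of 8 markers and exclude members and astrocyte precursors. Neuron-list barcodes exclude all the other classes. Foxj1 is found in 37.7% and 52.5% of members and in at most 7.61% of the other classes. Aqp4 and Vcam1 are frequent in members and astrocyte precursors alike, but Aqp4 is among the 8 markers that chose the precursors.

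Members of the 2 libraries differed from each other in region genes. Of 7972 measured genes, 209 were higher (2.62%) and 246 lower (3.09%) in members labelled cortex than in members labelled GE. With TMM scaling in place of totals, genes higher labelled cortex made up 58.1% of those called instead of 45.9%. Nkx2-1, a ventral factor, had 171 UMIs in members labelled cortex and 1 in members labelled GE (78.8-fold, 13.9 to 3129), and Nkx6-2, also ventral, had 179 and 0. Six3, a forebrain homeobox factor, was at 124 and 9.36 CPM. In the other direction, the dorsal factor Neurog2 had 10 and 215 UMIs (46.7-fold, 24.9 to 98.7 lower labelled cortex), Emx1 3 and 60 (43.4-fold, 14.2 to 216) and Eomes 15 and 164 (23.7-fold, 13.98 to 43.4). Hopx, a gene of radial glia, had 6 and 91. Members thus carried the region genes of their library, which run against its label.

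Many of these genes also differed between the astrocyte precursors of the 2 libraries. Between precursors, 161 of 7795 measured genes were higher labelled cortex (2.07%) and 163 lower (2.09%). Of the 209 genes higher in members labelled cortex, 109 were measured in precursors and 67 of those were called in the same direction. Of the 246 lower genes, 196 were measured and 85 were called in the same direction, and 0 genes of either kind were called in the other. Crym had 131 UMIs in precursors labelled cortex and 1 in those labelled GE, so a difference between the libraries was seen in precursors too. Foxj1 was close between members of the 2 libraries (higher labelled cortex by 1.31-fold, 1.03 to 1.67), and so were Capsl (1.72-fold, 1.19 to 2.54 higher) and Acta2 (1.15-fold, 0.807 to 1.63 lower). Pifo (2.15-fold, 1.55 to 3.04), Rsph1 (2.25-fold, 1.61 to 3.21) and Sfrp5 (3.93-fold, 2.82 to 5.63) were called higher labelled cortex. Olig1 was lower by 4.19-fold (3.59 to 4.91) in members labelled cortex than in members labelled GE, and its log2 ratio between the precursors was -0.14. Library, region and depth cannot be told apart in these values, since each region has 1 library at E18.5.

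**Figure D5:**
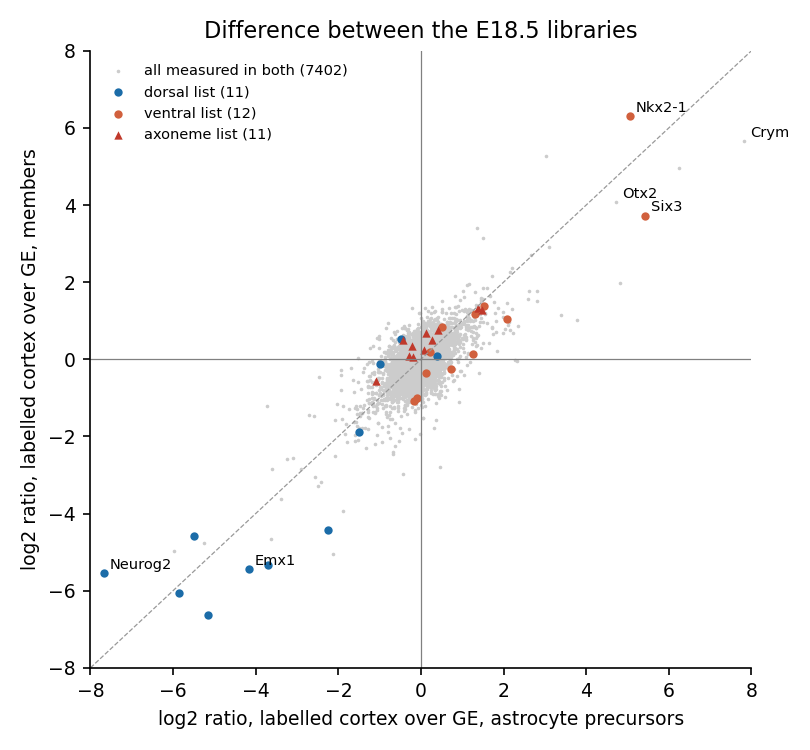
Log2 ratio of the library labelled cortex over that labelled GE in astrocyte precursors (x axis) and in members (y axis) for the genes measured in both, with an identity line. Ventral genes such as Nkx2-1 lie at the upper right and dorsal genes such as Neurog2 and Emx1 at the lower left.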

How the data were processed

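RNA of sorted cells was measured in 4 libraries, of which the 2 of E18.5 carry the results. The deposited files hold raw UMI counts of 27998 genes per barcode, made with Cell Ranger 1.3.1 against mm10, per the submitters' processing notes, which also name Seurat. From these counts, members were found by the rule, UMIs were summed over barcodes, and CPM were computed without the 13 mitochondrial, 84 ribosomal protein and 8 haemoglobin genes. The members and the 25 gene lists were chosen with earlier results of these data known. Genes named are the 10 highest and 10 lowest called genes of each comparison, ranked by the smaller change of the 2 libraries (between libraries, by the change itself), up to 6 genes of each list, and a set of regulators and markers, without Gm-numbered, haemoglobin, Xist, Tsix and Y-linked genes. Enkur was added with its promoter, and Dlx1, Myl9 and other list genes come from the lists. Intervals are exact (Clopper-Pearson for shares, Poisson for levels, conditional binomial for ratios), and PCR was collapsed by UMIs. Doublets were kept, and doublet-like barcodes (2 simulated per barcode, the top 0.8% per 1000 barcodes) were left out as an alternative. Python 3.11.15, numpy 2.4.6, scipy 1.17.1, pandas 2.3.3, scikit-learn 1.9.0 and matplotlib 3.10.9 were used, with gene positions from GENCODE M21. The ratio script was tested on simulated data. Alternatives concerned the rule, doublets, other cell types, depth, filters, weights, scaling and the CPM minimum.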

Additional observations from a re-analysis of the deposited data

Results flagged for a closer look

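Barcodes that met the rule also occurred at E15.5, in libraries that no comparison used. They were 45 of 1168 barcodes (3.85%, 2.82 to 5.12%) in the library labelled cortex and 24 of 876 (2.74%, 1.76 to 4.05%) in that labelled GE. Their median depths were 32417 and 100612 UMIs, against 16114 and 22639 UMIs for the other barcodes of those libraries. After thinning to 4000 UMIs, 1 and 0 barcodes met the rule, and a count of 0 of 876, read as at most 3 counts, allows up to 0.342%, with an exact 95% upper limit of 0.420%.

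In both contrasts, 1 gene was called in opposite directions in the E18.5 libraries, and these genes were chosen after their values were seen. Spon1, which encodes the secreted protein F-spondin, had a log2 ratio of members over other barcodes of 2.35 labelled cortex (319 and 428 UMIs) and of -1.61 labelled GE (14 and 316 UMIs). Npy, which encodes neuropeptide Y, had a log2 ratio of members over astrocyte precursors of -1.03 labelled cortex (193 and 286 UMIs) and of 1.21 labelled GE (40 and 47 UMIs). The difference between the libraries was not tested for either gene.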

How the results depend on the processing

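As reported, members were 10.1% and 5.31% of barcodes (labelled cortex first), 355 genes were higher and 114 lower than in other barcodes of both libraries, 115 and 63 against astrocyte precursors, and 209 and 246 between the libraries. With at least 4 rule genes the shares were 6.73% and 3.40%, and 174 genes were lower than in other barcodes. Without S100a6 in the rule they were 7.73% and 3.57%, with 173 lower. Without barcodes that held markers of other cell types they were 7.19% and 2.36%, and the oligodendrocyte median labelled GE was -2.12. The G2 and M phase median labelled cortex was -2.003 without doublet-like barcodes and -1.94 with TMM scaling.

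With barcodes thinned to 4000 UMIs the shares were 6.39% and 1.83%, 265 genes were lower than in other barcodes, and 108 were higher in members labelled cortex than labelled GE. Labelled GE, the medians were then 3.83 (dynein), 4.98 (axoneme), 0.81 (intraflagellar transport), 0.62 (basal body), 0.91 (radial glia) and -1.63 (G2 and M phase). Labelled cortex they were -2.95 (oligodendrocyte) and -3.14 (G2 and M phase). The log2 ratio of Gfap labelled GE turned from 1.34 to -0.034. Without the deepest 5% of barcodes the share labelled GE was 3.76%, with 676 higher and 447 lower genes against other barcodes and 240 and 197 against precursors. The medians labelled GE were then 2.97 (dynein), 3.37 (axoneme), 1.78 (astrocyte), -2.84 (oligodendrocyte) and -2.17 (G2 and M phase), the last being -2.62 labelled cortex.

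With means of barcodes there were 561 higher and 292 lower genes, and 178 and 136 against precursors. The medians were 3.36 (axoneme), 0.85 (radial glia) and -2.50 (oligodendrocyte) labelled GE and -1.98 (G2 and M phase) labelled cortex. Without barcodes with both Xist and Y-linked UMIs, 637 genes were higher and 375 lower, 241 and 168 against precursors. The medians were 2.65 (dynein), 3.35 (axoneme), 1.69 (astrocyte), -2.55 (oligodendrocyte) and -2.06 (G2 and M phase) labelled GE and -1.98 (G2 and M phase) labelled cortex. A minimum of 10 CPM gave 534 higher genes, 211 against precursors, and 343 and 414 between the libraries. A minimum of 50 CPM gave 171 and 50, 44 and 25, and 88 and 92, with an axoneme median labelled cortex of 2.59 and dynein medians of -0.023 and -0.0071, over 5 and 2 genes. No minimum gave 844 and 245, 352 and 109, and 441 and 573. The minimum changes how many genes are measured, and for the other settings the cause was not tested.

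Of the member shares under all settings, 9 moved and 7 did not, and of the counts of called genes 32 moved and 52 did not. Of the list medians, 28 moved and 252 did not, and of the values of named genes 1033 moved, 1 changed sign and 3941 did neither. The share of higher genes among those called was 54.2% with TMM scaling against 63.4% labelled cortex, and 56.8% with means of barcodes against 68.5% labelled GE. TMM scaling moved the median of all measured genes labelled cortex from -0.04 to -0.18. No paired analysis was possible because each group has 1 library, and for the same reason no replicate could be left out. Mcidas and Gmnc had 5 and 2 UMIs in members labelled GE, so their ratios carry wide intervals.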
